A study of Mus musculus with 9 samples.

Results

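The comparison described here sets the aortas of obese mice given sitagliptin against those of vehicle mice, as 6 of the 9 arrays of the series. All animals were male C57BL/6J mice, with 3 aortas and 3 arrays in each group. The vehicle group is labelled by its treatment alone, and no diet is named for it. The DIO+sitagliptin group was fed a high-fat diet and given oral sitagliptin at 3 mg/kg per day, and the labels give no length of diet for it. The 6 arrays were chosen by these treatment labels and not by any measured value. The remaining 3 arrays come from untreated mice made obese over 4 months (DIO) and served in the normalization and the estimate of the spread, and their levels are given for 3 genes at the end. Treated and vehicle mice differ in both diet and drug, so the effects of the diet and of the drug cannot be told apart in this comparison.

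Sitagliptin inhibits dipeptidyl peptidase-4, the enzyme that cuts and inactivates the incretin hormones GLP-1 and GIP. Incretins raise insulin release after a meal, and the enzyme is also made by cells of the vessel wall. The aorta consists mainly of smooth muscle lined by endothelium, with an outer layer of fibroblasts and surrounding fat, and obesity is known to impair the relaxation that its endothelium controls. The series profiled noncoding and protein-coding transcripts of the aorta under this drug.

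RNA was read as Cy3 spot intensity on a one-colour array. Levels below are log2(intensity + 1) after quantile normalization, and a difference is the treated mean minus the vehicle mean on that scale, so that -1 stands for a 2-fold lower signal. On the 6 arrays between 61.7% and 79.8% of spots were well above background, and the highest of the 15 probes named NEGATIVE read 30.1 to 48.6 intensity units. That probe serves below as a yardstick for background. Vehicle 3 and treated 3 were scanned on 20 November and the other 4 arrays on 12 November, so each group holds 1 later array and the scan date enters the fit as a term. The headers hold 3 scan records, and treated 1 is the only array of its record. Of the 60823 probes, 49360 passed the detection filter. Only 50 are tied to a transcript, and 40 named genes among these passed, while 9 did not and 1 probe matched no gene. None of the 5 smooth muscle, 5 endothelial, 4 fibroblast, 5 fat or 4 macrophage markers had a named probe, nor had any of 5 incretin pathway genes, so the identity of the tissue could not be checked by name. In whole tissue, fewer cells of a type and less RNA per cell cannot be told apart.

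No probe passed in treated against vehicle aortas with limma at an adjusted p under 0.05, so 0% of the 49360 probes were called. No adjusted p in limma's test was below 0.723. Without adjustment 3393 probes, or 6.87%, had a p under 0.05, and 2171 of them were higher and 1222 lower in treated aortas. With the replicate number as a block this count was 1051 in the 9 arrays and 3783 in the 6 arrays compared, and without the scan date term it was 713, each with 0 calls. Leaving out vehicle 1 gave 1513 and leaving out vehicle 2 gave 5966, again with 0 calls. The higher side held 64.0% of these probes with quantile normalization, 52.4% with median scaling and 84.4% with no normalization, where the median of all probes moved to 0.19. The larger side turned with the replicate block, to 507 higher and 544 lower in the 9 arrays and 1752 higher and 2031 lower in the 6 arrays. It also turned among the probes well above background on all 6 arrays, with 486 higher and 711 lower. Among those above the highest NEGATIVE probe on at least 3 of the 6 arrays the larger side stayed, with 676 higher and 387 lower.

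The 4 named genes of smallest unadjusted p all had lower means in treated aortas, and they encode a glycolytic enzyme, a lipid carrier and class Ib histocompatibility proteins. Gpi1, which interconverts glucose-6-phosphate and fructose-6-phosphate, was 2.21-fold lower in the treated mean, and Apoe, the apolipoprotein that carries remnant particles to their receptors, was 2.74-fold lower. H2-Q7 was 2.95-fold lower and H2-M2 1.74-fold lower. None of the 4 passed the adjusted test. Over all 40 named genes 24 had lower and 16 higher means, which is 60.0% lower beside 49.6% of all probes, of which 50.4% were higher. Their median difference was -0.08 against 0.004 over all probes. A named probe averages up to 10 spots, while the 61537 spots of an array hold 60823 probes, so most probes have 1 spot. The shares of named genes given here and below thus rest on more spots per probe than those of all probes. A gene was lower in all 3 same-numbered array pairs in 9 of the 40 cases, or 22.5%, beside 15.1% of all probes, and higher in all 3 in 2 cases, beside 16.4%, where 31.4% of all probes kept 1 direction either way. A mean difference over 2-fold was found for 4 named genes, Actb, H2-Q7, Apoe and Gpi1, all lower, while 2.35% of all probes were lower and 1.71% higher by as much. Of the 21 genes brighter than the highest NEGATIVE probe on at least 3 of the 6 arrays, 7 were lower in all 3 pairs and 0 were higher. The like share among the 24599 probes at that cut was not counted, so this count has no matching background.

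Glycolysis and creatine synthesis were represented by Gpi1 and Gamt. The level of Gpi1 was 6.78, 5.45 and 6.63 in vehicle 1 to 3 and 4.96, 5.05 and 5.42 in treated 1 to 3. All 3 treated aortas lay below all 3 vehicle aortas, with the narrowest gap between vehicle 2 and treated 3. The difference was -1.14 ± 0.50 (SE, n = 3 per group; unadjusted 95% interval -2.26 to -0.03; limma adjusted p = 0.723). The groups did not overlap for 4.04% of all probes, 1.71% with treated lower and 2.34% with treated higher. The treated readings before normalization were 45.1, 38.5 and 30.6 units, and the yardstick probe on those arrays was at 48.6, 37.3 and 30.1 units. The treated Gpi1 readings thus lay close to background. Its value was -1.11 among the arrays of 12 November and -1.21 in the pair of 20 November. Gamt, which makes creatine from guanidinoacetate, had levels of 6.33, 6.98 and 6.42 in vehicle and 5.75, 6.98 and 7.13 in treated aortas. Its groups overlapped, and the difference was 0.05 ± 0.41, which became -0.11 with median scaling, -0.29 without either array of 20 November, -0.042 without vehicle 1 and -0.21 without treated 2.

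Apoe is the one gene of lipid transport with a named probe. Its level was 10.30, 8.07 and 10.19 in vehicle and 8.95, 7.54 and 7.69 in treated aortas. Vehicle 1 and 3 stood above all treated aortas, while vehicle 2 lay between them. The difference was -1.46 ± 0.66 (SE, n = 3 per group; unadjusted 95% interval -2.93 to 0.02; limma adjusted p = 0.723). Readings were above the highest NEGATIVE probe on all 6 arrays, with treated values of 346, 190 and 245 units before normalization. By replicate number the differences were -1.35, -0.52 and -2.50. Over 22 alternatives the difference stayed below 0, from -2.24 without vehicle 2 to -0.94 without either array of 20 November, with -0.97 without vehicle 1. Those that change only the filter, the date or block term, the use of the DIO arrays or the variance prior cannot move it.

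**Figure D1:**
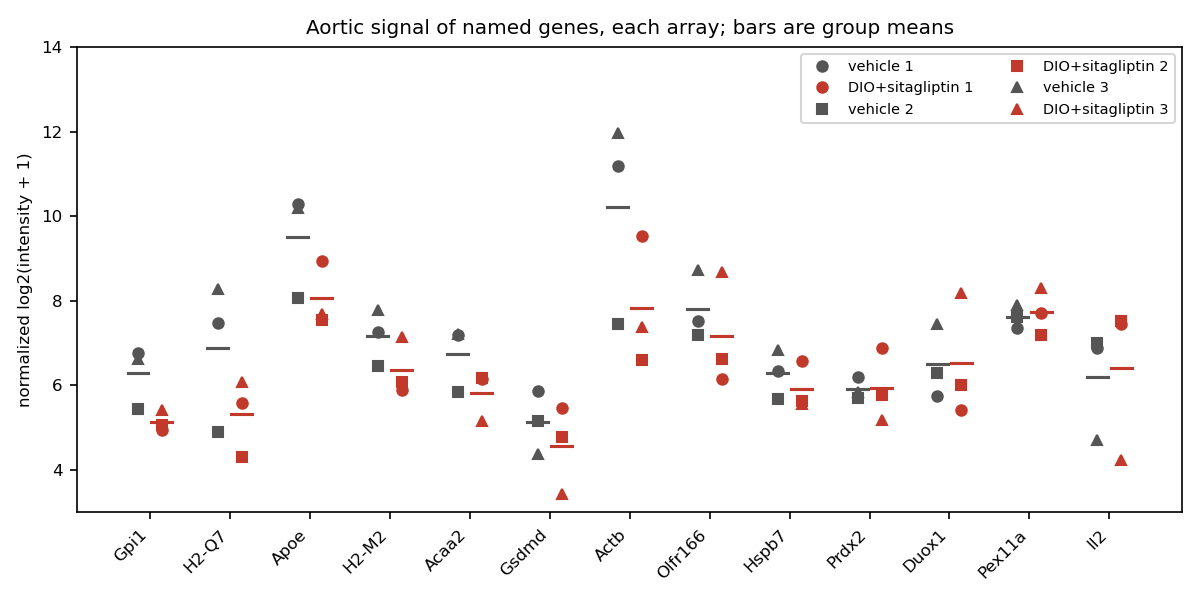
Normalized log2(intensity + 1) of 13 named genes on each of the 3 vehicle (grey) and 3 DIO+sitagliptin (red) arrays, with the replicate number as the symbol and bars at the group means. Among these genes only Gpi1 has all 3 treated points, from 4.96 to 5.42, below all 3 vehicle points, from 5.45 to 6.78, while for Apoe and Actb the vehicle 2 array lies among the treated ones.

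Fatty acid oxidation and the peroxisome were covered by Acaa2, Cpt1a and Pex11a, of which 0 passed. Acaa2, the thiolase of the last step of mitochondrial beta-oxidation, stood at 7.18, 5.85 and 7.22 in vehicle and 6.16, 6.17 and 5.17 in treated aortas. The difference was -0.92 ± 0.47 with overlapping groups, and the second pair differed the other way by 0.32. It was -0.35 without either array of 20 November and -1.47 without vehicle 2. On treated 3 Acaa2 read 23.9 units, below the highest NEGATIVE probe there. Cpt1a, the carnitine transferase of fatty acid entry into mitochondria, differed by -0.44 ± 0.40, or -0.20 without vehicle 1 and -0.69 without vehicle 2, but none of its 6 readings exceeded the highest NEGATIVE probe. Pex11a, a protein of peroxisome division, was well above background throughout, at 7.36, 7.61 and 7.91 in vehicle and 7.72, 7.20 and 8.30 in treated aortas. The groups overlapped and its difference was 0.11 ± 0.32, which turned to -0.20 with median scaling and to -0.028 without either array of 20 November.

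Of the 5 immune genes 4 had lower and 1 had higher means in treated aortas, and 0 were called. H2-Q7 had levels of 7.48, 4.90 and 8.28 in vehicle and 5.60, 4.30 and 6.08 in treated aortas. The second array of each group was its dimmest, and both of these lay below the highest NEGATIVE probe. The difference was -1.56 ± 0.69 (unadjusted 95% interval -3.10 to -0.02; limma adjusted p = 0.723), with pair differences of -1.89, -0.59 and -2.20. It was -0.91 without vehicle 1 and -2.39 without vehicle 2. H2-M2 read 7.26, 6.47 and 7.78 in vehicle and 5.89, 6.09 and 7.14 in treated aortas, above the highest NEGATIVE probe on all 6 arrays. Its difference was -0.80 ± 0.36 (limma adjusted p = 0.723), lower in all 3 pairs, although treated 3 exceeded vehicle 2. Class I histocompatibility genes form a family of similar sequences, so signal from relatives of H2-Q7 cannot be separated here. At an unadjusted p under 0.05 and lower, H2-Q7 and Gpi1 are 2 of the 40 named genes, beside 2.48% of all probes.

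Gsdmd, the pore-forming protein of pyroptosis, stood at 5.86, 5.17 and 4.38 in vehicle and 5.46, 4.79 and 3.43 in treated aortas. Each treated aorta was below its same-numbered vehicle aorta, yet the groups overlapped widely, and the difference was -0.57 ± 0.30. Gsdmd exceeded the highest NEGATIVE probe on 3 of the 6 arrays. Both readings of the third pair, 9.77 units in vehicle and 4.73 in treated, lay below it. The T-cell growth factor Il2 was at 6.88, 6.99 and 4.71 in vehicle and 7.46, 7.53 and 4.24 in treated aortas. Both arrays of 20 November were low and below the highest NEGATIVE probe, and the difference was 0.22 ± 0.31, which became -0.26 with median scaling and ran from 0.088 without vehicle 1 to 0.56 without either array of 20 November. Mzb1, a chaperone of antibody-secreting cells, had 6.21, 5.58 and 4.64 in vehicle and 5.59, 5.73 and 5.03 in treated aortas. Its groups overlapped and its difference was -0.02 ± 0.29, turning to 0.15 with no normalization, 0.22 without vehicle 1 and 0.075 without treated 1. Il2 and Mzb1 are the 2 of 4 T- and B-cell markers with a named probe.

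Actb and Hspb7 stand for the cytoskeleton and muscle chaperones. Actb, cytoplasmic beta-actin, had the widest spread of the named genes, with 11.19, 7.45 and 11.97 in vehicle and 9.53, 6.60 and 7.39 in treated aortas. Its difference was -2.37 ± 1.25 (unadjusted 95% interval -5.16 to 0.42; limma adjusted p = 0.724), and the third pair alone gave -4.58. Among the arrays of 12 November it was -1.26, and without vehicle 2 it was -3.75. Hspb7, a small heat-shock protein of heart and skeletal muscle, read 6.35, 5.68 and 6.85 in vehicle and 6.58, 5.63 and 5.57 in treated aortas. The difference was -0.37 ± 0.48, with -1.28 in the third pair, and it was 0.086 without either array of 20 November.

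Control features of mouse GAPDH and PGK1 read each of these transcripts at 2 positions. The log2 ratio of the GAPDH feature named 3 to that named 5 was -1.49, -0.02 and -2.48 in vehicle and -1.20, 0.50 and -1.75 in treated aortas. It was higher in the treated array of each pair, by 0.30, 0.52 and 0.73, while the groups overlapped. Of the 40 named genes 9 were lower in the treated array of all 3 pairs, 22.5% beside 15.1% of all probes, and 2 were higher. The 9 were Actb, Apoe, Gpi1, H2-Q7, H2-M2, Gsdmd, Taf1a, Olfr166 and E2f1. The same ratio for PGK1 was 1.41, 0.93 and 1.94 in vehicle and -0.98, 0.01 and 5.14 in treated aortas, lower in the treated array of the first and second pairs and higher in the third. The PGK1 feature named 5 read 27.3, 39.2 and 21.5 units in vehicle and 2.88 units on treated 3. Each of these lay below the highest NEGATIVE probe of its array, as did the feature named 3 on treated 1, at 34.4 units. The PGK1 ratios of these arrays thus involve a background reading. The part of these ratios in the genes' differences was not tested.

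The 3 redox genes that passed the filter had higher means in treated aortas, with 0 calls, and the sign of Prdx2 and Duox1 turned in the fits given here. Prdx2, a peroxide-reducing enzyme, was at 6.21, 5.69 and 5.85 in vehicle and 6.89, 5.77 and 5.18 in treated aortas. The treated aortas spanned the vehicle range, and the difference of 0.03 ± 0.38 became -0.41 with median scaling, -0.12 with no normalization, -0.22 without vehicle 2 and -0.39 without treated 1. Duox1, an oxidase that makes hydrogen peroxide, had 5.75, 6.28 and 7.46 in vehicle and 5.43, 6.00 and 8.19 in treated aortas. Its brightest arrays were those of 20 November in both groups, and the difference of 0.04 ± 0.33 turned to -0.30 without either of these, -0.013 without vehicle 1 and -0.023 without treated 2. Gsta4, a glutathione transferase that detoxifies lipid aldehydes, stood at 4.08, 4.19 and 4.65 in vehicle and 4.48, 4.12 and 4.99 in treated aortas, a difference of 0.23 ± 0.24 with each of its 6 signals below the yardstick probe. Sod1 did not pass the detection filter.

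The 3 neuronal and secretory genes, Gabrg1, Chgb and Ntng1, had higher means in treated aortas, and 0 passed. Gabrg1, a GABA receptor subunit, stood at 3.28, 3.27 and 2.75 in vehicle and 3.59, 3.50 and 4.09 in treated aortas. The groups did not overlap, and the difference was 0.62 ± 0.35 (limma adjusted p = 0.730), which was 0.27 without either array of 20 November. All 6 readings, from 1.43 to 20.9 units, lay below the highest NEGATIVE probe of their array. Chgb, a protein of secretory granules, differed by 0.13 ± 0.55 and changed sign to -0.23 without either array of 20 November and to -0.46 without treated 2. Ntng1, an axon guidance protein, had 3.18, 3.41 and 4.47 in vehicle and 3.89, 3.43 and 4.19 in treated aortas. Its difference of 0.15 ± 0.28, also below the highest NEGATIVE probe, became -0.038 without treated 1.

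Of the odorant receptors, Olfr166 had levels of 7.53, 7.19 and 8.73 in vehicle and 6.16, 6.63 and 8.69 in treated aortas. Both arrays of 20 November were high, and the difference of -0.65 ± 0.38 was -0.96 among the arrays of 12 November and -0.04 in the later pair. Olfr1307 stood at 6.67, 7.81 and 7.74 in vehicle and 6.99, 7.51 and 8.30 in treated aortas. Its groups overlapped, with a difference of 0.20 ± 0.40 that became -0.052 with median scaling and -0.078 without vehicle 1.

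The 6 genes of regulation and the cell cycle were dim, with 3 higher and 3 lower means and 0 calls. Taf1a, a subunit of the RNA polymerase I selectivity factor, was at 4.33, 3.99 and 5.68 in vehicle and 3.92, 3.89 and 4.45 in treated aortas, lower in all 3 pairs with a difference of -0.58 ± 0.28 (limma adjusted p = 0.723), or -0.25 without either array of 20 November. It exceeded the highest NEGATIVE probe on 1 of the 6 arrays, vehicle 3. The groups of Taf1a overlapped. E2f1, a transcription factor of entry into S phase, did not overlap between groups, a gene singled out after its values were seen. Its difference was -0.21 ± 0.24 and became 0.13 with no normalization and -0.12 without either array of 20 November. Gpi1, Gabrg1 and E2f1 thus are the 3 of 40 named genes without overlap, 7.5% beside 4.04% of all probes.

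Trp53rka, named for a p53-regulating kinase, stood at 3.90, 3.76 and 2.76 in vehicle and 4.22, 3.96 and 2.66 in treated aortas, a difference of 0.14 ± 0.27. Alkbh4, a demethylase of the AlkB family, had 3.65, 3.56 and 4.33 against 4.03, 3.87 and 4.38, higher in all 3 pairs at 0.25 ± 0.24. Cep41, a protein of the centrosome and cilium, had 2.94, 3.13 and 2.76 against 3.18, 3.00 and 3.71, a difference of 0.36 ± 0.32 that was 0.06 without either array of 20 November. Rab5a, a GTPase of early endosomes that is in none of the lists, had 2.88, 2.99 and 4.01 against 3.30, 3.09 and 3.99, a difference of 0.17 ± 0.31. The RNA-binding Carhsp1 differed by -0.32 ± 0.35, which became 0.086 with no normalization, -0.029 without either array of 20 November and -0.60 without vehicle 2. For E2f1 and these 5 genes no reading exceeded the yardstick probe. The 12 named genes not described singly had 10 lower and 2 higher means, and 0 passed. That split follows from the rule of choice, which took 14 lower and 14 higher genes out of 24 lower and 16 higher.

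**Figure D2:**
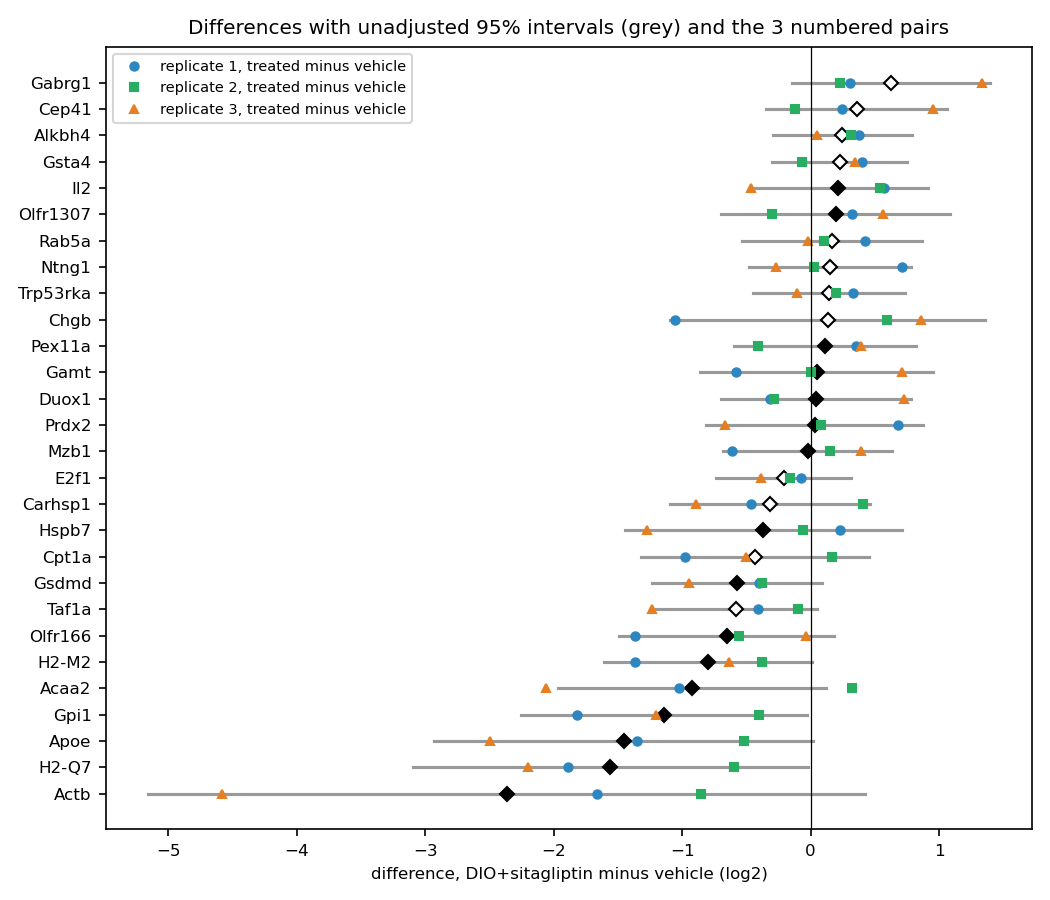
Difference of DIO+sitagliptin minus vehicle on the log2 scale for 28 named genes, as the difference of group means (diamonds, filled where the gene exceeded the highest NEGATIVE probe on at least 3 of 6 arrays), its unadjusted 95% interval (grey lines) and the difference within each replicate number (coloured symbols). The intervals come from the fit with scan date and no pair term, where those of Gpi1 and H2-Q7 alone leave out 0. The replicate 3 points are the most extreme for Actb, Apoe and H2-Q7.

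Most of the array carries the maker's own identifiers, which were not matched to genes. Probes whose names begin with ASMM10LNC made up 23503 of the probes that passed the filter and those with ASMM10AP 18579, followed by 5489 with ASMM10P, 720 with humanlincRNA, 445 with mouselincRNA and 405 with ASMM10UP. Each of these families had 0 calls. Groups did not overlap for 3.98% of ASMM10LNC probes, 4.00% of ASMM10AP probes and 4.41% of ASMM10P probes, near the 4.04% of all probes. The ASMM10LNC share at an unadjusted p under 0.05 was 6.88% and the ASMM10AP share 6.61%, beside 6.87% over all. The direction within these differed, with 1105 higher and 513 lower for ASMM10LNC and 654 higher and 575 lower for ASMM10AP. With median scaling the counts were 1173 and 877 for ASMM10LNC and 671 and 1043 for ASMM10AP, so the larger side of ASMM10AP turned.

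Of the 3 families with lincRNA in their names, humanlincRNA and mouselincRNA had the higher medians in treated aortas. For humanlincRNA the median difference was 0.18 and for mouselincRNA 0.13, where all probes had 0.004. The third, MM9LINCRNAEXON with 58 probes, had a median of 0.04, and -0.11 among its 22 probes above the highest NEGATIVE probe on at least 3 arrays. By replicate number the humanlincRNA medians were 0.10, 0.09 and 0.31 and the mouselincRNA medians 0.14, 0.07 and 0.30, above 0 in each pair. Relative to the median of all probes the humanlincRNA median stood at 0.18 with quantile normalization and at 0.26 with median scaling or none, and the mouselincRNA median at 0.13 and 0.23. In the same order MM9LINCRNAEXON stood at 0.03 and 0.17, and ASMM10UP, without lincRNA in its name, at 0.04 and 0.16. At an unadjusted p under 0.05, 48 of 720 humanlincRNA probes were higher and 7 lower, and 38 of 445 mouselincRNA probes higher and 2 lower. Of 58 MM9LINCRNAEXON probes 8 were higher and 1 lower. These shares were 7.64%, 8.99% and 15.5%, beside 6.87% of all probes, 4.4% higher and 2.48% lower. Among 12340 probes of like signal, with a median of 22.4 units, the share was 9.59%, with 797 higher and 387 lower. The 10 NEGATIVE probes that passed the filter had a median difference of 0.20, with 0.71, 0.15 and -0.03 by replicate number, and 0.36 above the median of all probes with median scaling or none. The humanlincRNA and mouselincRNA probes were also dim, with median signals of 20.3 and 20.9 units where all probes had 31.5. Among the humanlincRNA probes above the highest NEGATIVE probe on at least 3 arrays, 263 in number, the median difference was 0.16. The part of background level in these medians was not tested.

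**Figure D3:**
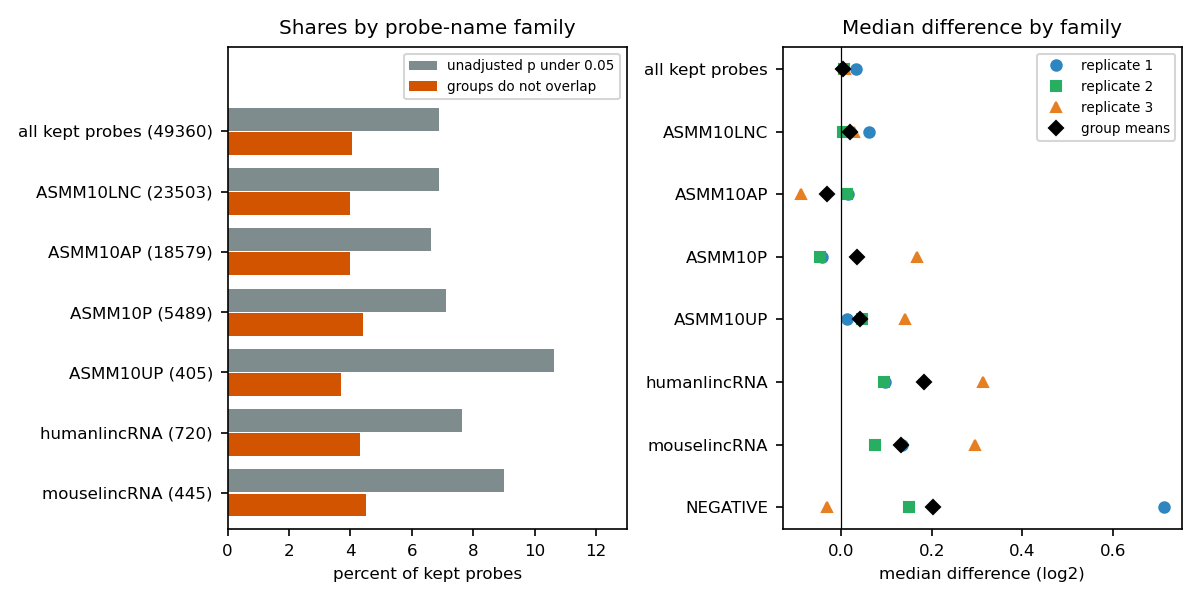
Left, the percent of probes in each probe-name family with at least 400 probes kept that had an unadjusted limma p under 0.05 (grey) or groups that did not overlap (orange), with the number of probes in parentheses. Right, the median log2 difference of treated minus vehicle by family, within each replicate number (coloured symbols) and for the group means (black diamonds), where the humanlincRNA and mouselincRNA families lie right of 0 in all 3 pairs and the NEGATIVE probes spread from -0.03 to 0.71.

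Signal strength went with the share of low p values. In the dimmest 12340 probes, with a median of 11.1 units, 10.1% had an unadjusted p under 0.05, with 907 higher and 344 lower. In the brightest 12340, with a median of 346 units, the share was 1.67%, with 59 higher and 147 lower. The median difference ran from 0.09 in the dimmest to -0.06 in the brightest. Low p values were mostly on the higher side in the dimmest 12340 probes and mostly on the lower side in the brightest 12340. The next brightest 12340, with a median of 47.5 units, held 408 higher and 344 lower.

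Single probes with the maker's identifiers were taken from those whose groups did not overlap and that exceeded the highest NEGATIVE probe on all 3 arrays of the higher group. There were 235 such probes higher in treated aortas and 248 lower, including 120 and 116 of ASMM10LNC and 93 and 94 of ASMM10AP. Since these were selected by the same values, their differences are a description. The rule sets no minimum for the lower group, and where that group lies below the yardstick probe the difference is one against background. The smallest p among the higher ASMM10LNC probes belonged to ASMM10LNC1A101670503V4, with 4.41, 5.10 and 4.47 in vehicle and 5.78, 5.50 and 6.47 in treated aortas, a difference of 1.26 ± 0.32. The probe ASMM10LNC1A118304421V4 was bright on all arrays, at 8.63, 8.87 and 7.98 in vehicle and 9.95, 9.42 and 10.37 in treated aortas. ASMM10LNC1A101163851V4 differed by 1.62 ± 0.47.

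On the lower side ASMM10LNC1A111075728V4 differed by -1.48 ± 0.37, ASMM10LNC1A100047119V4 by -1.39 ± 0.38 and ASMM10LNC1A100782710V4 by -1.11 ± 0.32. ASMM10LNC1A100782710V4 had nearly equal treated levels of 4.74, 4.62 and 4.63, against 6.11, 5.21 and 6.00 in vehicle. All 3 treated readings of ASMM10LNC1A100782710V4 and of ASMM10LNC1A111075728V4 lay below the highest NEGATIVE probe of their arrays. Among ASMM10AP probes the smallest p of those lower belonged to ASMM10AP1B116154023V4, at 6.18, 7.98 and 6.61 in vehicle and 4.69, 4.77 and 5.36 in treated aortas. Its difference was -1.98 ± 0.46, with all 3 treated readings below the highest NEGATIVE probe, and ASMM10AP1B102570493V4 and ASMM10AP1B113212724V4 followed with -1.94 ± 0.51 and -1.69 ± 0.45. The higher ASMM10AP probes ASMM10AP1B110870175V4, ASMM10AP1B114671640V4 and ASMM10AP1B100201468V4 differed by 1.07 ± 0.30, 0.98 ± 0.28 and 0.93 ± 0.27, and for ASMM10AP1B114671640V4 all 3 vehicle readings were below that probe. From the other families, ASMM10P022448V4 and ASMM10P056514V4 were higher by 1.07 ± 0.29 and 0.96 ± 0.29. ASMM10P022225V4, the brightest of the selected probes, had 12.18, 10.84 and 12.51 in vehicle and 9.88, 10.43 and 10.63 in treated aortas, and ASMM10P057850V4 differed by -0.79 ± 0.30. All of these probes had a limma adjusted p of 0.723.

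The scan dates gave separate estimates of the same contrast, since they share no array. Across the 49360 probes the difference among the arrays of 12 November and that in the pair of 20 November had a Pearson r of 0.06, given as a description since probes of 1 array are not independent. The sign was shared by 50.6% of probes. Of the 3007 probes that differed over 2-fold on 12 November, 1523 had the same sign on 20 November, which is also 50.6%. Between replicates 1 and 2, scanned on 1 day, r was 0.31, rising to 0.39 among the 24599 probes above the highest NEGATIVE probe on at least 3 arrays. The third pair correlated with the first at 0.06 and with the second at 0.03. Apoe, Gpi1, H2-Q7 and Actb had the same sign at both dates, with later values of -2.50, -1.21, -2.20 and -4.58. These genes were singled out by their mean difference over both dates, and that choice itself favours a shared sign. For Hspb7, Il2, Duox1, Gamt, Mzb1, Prdx2, Pex11a, Chgb, Ntng1, Rab5a and Trp53rka the sign differed between the dates.

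**Figure D4:**
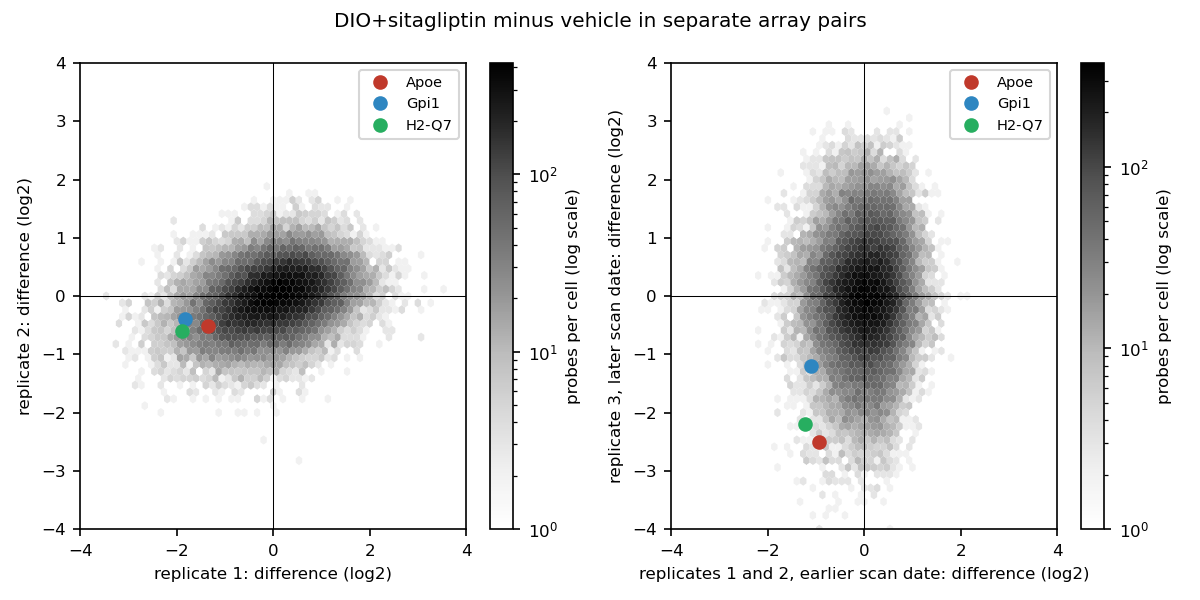
Log2 difference of DIO+sitagliptin minus vehicle for 49360 probes, shaded by the number of probes per cell, in replicate 2 against replicate 1 (left) and in the pair of the later scan date against the mean of the 2 pairs of the earlier date (right), where 21 and 39 probes lie outside the axes. The left cloud tilts with r = 0.31 and the right one does not, with r = 0.06, while Apoe, Gpi1 and H2-Q7 lie below 0 on all axes. These genes were singled out by their difference over all pairs, which favours a shared sign.

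The untreated obese aortas place the treated levels beside those of mice on the diet alone, as values without a test. All DIO arrays were scanned on 12 November, while the vehicle and treated ranges each include an array of 20 November, so scan date is not balanced here. Gpi1 stood at 6.73, 6.71 and 4.99 in DIO 1 to 3, so that DIO 3 lay with the treated aortas and the others with vehicle. Apoe stood at 9.40, 8.94 and 8.08, inside the vehicle range of 8.07 to 10.30. The Apoe levels of DIO 2 and DIO 3 also lay inside the treated range of 7.54 to 8.95. H2-Q7 was at 6.43, 5.62 and 4.58, of which DIO 3 lay below the lowest vehicle aorta. The DIO 3 reading of 25.3 units was below the highest NEGATIVE probe of that array, at 31.7 units. For H2-Q7, DIO 2 and DIO 3 lay inside the treated range of 4.30 to 6.08.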

How the data were processed

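Each deposited file holds the spots of 1 array as intensity, background-subtracted and spatially detrended. Per the file headers the authors used Agilent Feature Extraction 11.0.1.1 on a grid of the mm9 build, and no normalization between arrays is recorded. No coordinates are given. Probes were named where the files pair them with a transcript accession: RefSeq transcripts of GRCm38.p6 matched 46 of 50 and GENCODE transcripts 3 more. Control features were left out. Log2(intensity + 1) was averaged over replicate spots and quantile normalized over 9 arrays. The detection filter asked for a share of at least 0.5 of a probe's spots well above background on 3 or more arrays. Limma 3.58.1 in R 4.3.3 fitted all 9 arrays with a coefficient per group, scan date as a term and an intensity trend in the variance prior, with Benjamini-Hochberg adjustment over all kept probes. Python 3.11.15 with pandas 2.3.3, numpy 2.4.6 and matplotlib 3.10.9 served for the rest. The procedure was tested on simulated data with noise drawn independently for each array. Apart from the scan date term that simulation holds no correlation between same-numbered arrays.

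The comparison, the gene lists and the scan date term were chosen with earlier results of these data known. Values per aorta were printed for the 8 lower and the 8 higher named genes of smallest unadjusted p and for listed genes above the highest NEGATIVE probe on at least 3 of 6 arrays. Of the probes with the maker's identifiers, the 3 of smallest p in each direction were named for ASMM10LNC and ASMM10AP and 2 for the other families together. Counts over same-numbered pairs and by signal were chosen after values were seen. Replicates are separate mice, per the series' design text. Deviations of same-numbered vehicle and treated arrays correlated at 0.67, 0.65 and 0.76, so the numbers were taken to pair them, although the third pair also shares its scan date. The SE, interval and p printed for a gene come from the fit with scan date, which has no pair term. With the replicate block in the 6 arrays the SE fell for some genes, to 0.63 for Actb, 0.40 for Apoe and 0.38 for H2-Q7. It rose for others, to 0.39 for Gabrg1 and 0.31 for Gsta4. In the 9 arrays the block gave 0.89 for Actb, 0.56 for Apoe and 0.71 for H2-Q7. Alternatives covered normalization, pseudocount, intensity column, filter, spot summary, model terms, arrays in the fit, variance prior and leaving out each array. The number of arrays limits the precision.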

Additional observations from a re-analysis of the deposited data

Results flagged for a closer look

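Of 68 names of control features, which enter no comparison, 1 was brighter on all 3 treated than on all 3 vehicle arrays and above the highest NEGATIVE probe on each treated array. This was GE_BrightCorner, a marker of array orientation, at 24050, 14414 and 26476 units on treated 1 to 3 against 6117, 14103 and 1769 on vehicle 1 to 3, a signal outside the main measurement.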

How the results depend on the processing

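In 22 other fits, of which 4 were chosen after seeing the data, treated against vehicle had 0 calls in each. At an adjusted p under 0.25 there were 0 probes, with 1 when vehicle 1 and 257 when vehicle 2 was left out. The planned column of mean signals is not among those used here, so the background-subtracted column took its place. The count at an unadjusted p under 0.05 was 713 without the scan date term, 301 in the 6 arrays with no term, 1051 with the replicate block in 9 arrays, 1197 for probes well above background on all 6 arrays and 1063 for those above the highest NEGATIVE probe on at least 3. The replicate block within the 6 arrays compared, from the pairing by number, gave 3783, and neither block changed a call. The count of probes without overlap was 1173 with no normalization, 1034 and 557 under the stricter filters, 8464 with values centred within each scan date and 18322 in the arrays of 12 November alone, where 2 stand against 2. Leaving out 1 array gave 1513 to 5966 at an unadjusted p under 0.05, 3109 to 15202 without overlap, since fewer arrays separate more easily, and 0 calls.

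Of the 28 genes described, 16 kept their sign in each alternative that could be run. Median scaling turned Il2 to -0.26, Prdx2 to -0.41, Olfr1307 to -0.052, Pex11a to -0.20 and Gamt to -0.11. No normalization turned E2f1 to 0.13, Prdx2 to -0.12, Carhsp1 to 0.086 and Mzb1 to 0.15. The median over spots turned Mzb1 to 0.0091. With scan record as a term Prdx2 stood at -0.39, Ntng1 at -0.038 and Mzb1 at 0.075. In the arrays of 12 November alone Chgb stood at -0.23, Hspb7 at 0.086, Pex11a at -0.028, Duox1 at -0.30 and Gamt at -0.29. Without 1 array at a time the differences ranged from -0.46 to 0.94 for Chgb, -0.30 to 0.30 for Duox1, -0.29 to 0.49 for Gamt, -0.77 to 0.086 for Hspb7, -0.23 to 0.22 for Mzb1, -0.038 to 0.37 for Ntng1, -0.078 to 0.57 for Olfr1307, -0.028 to 0.30 for Pex11a and -0.39 to 0.38 for Prdx2. The causes were not tested.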
